A study of Sus scrofa with 4 samples.

Results

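Oxidative phosphorylation (OXPHOS) is the route by which mitochondria turn the energy of reduced coenzymes into ATP. Complexes I, III and IV pass electrons to oxygen and pump protons across the inner membrane, and complex V, the ATP synthase, lets the protons flow back to make ATP. Its subunits come from 2 genomes: the mitochondrial genome encodes a few membrane subunits of complexes I, III, IV and V, and nuclear genes encode the rest. The genes described here were chosen by name, as the rows NDUFA, NDUFB, NDUFC, NDUFS or NDUFV followed by a digit, UQCR, COX4 to COX8 and ATP5, without the paralogues COX4I2 and NDUFA4L2, plus the 13 protein-coding genes of the mitochondrial genome. This gave 75 of the 29263 genes in the tables: 62 encoded in the nucleus (31 of complex I, 6 of complex III, 13 of complex IV and 12 of complex V, with NDUFA4 counted in complex IV) and 13 in the mitochondrion. Subunits outside this rule are not counted among the 75. Of those, CYC1 of complex III and SDHA to SDHD of complex II are described. Some subunits whose names fit the rule had no row under such a name, among them ATP5F1B, UQCRB, UQCRH, COX6B1 and NDUFS7. The set of genes for each complex is therefore incomplete.

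RNA was measured in 4 libraries of lung cells from LGR5-H2B-GFP knock-in pigs. The reporter couples a fluorescent histone to the transcription of LGR5, a receptor for the Wnt-amplifying R-spondins. All 4 libraries carry this allele, and no library of pigs without it is described. The 2 GFP-HI libraries hold sorted bright cells and the 2 GFP-NEG libraries hold cells without fluorescence, each with biological replicate numbers 1 and 2. No label of these libraries gives the age of the animals or a cell type beyond the fluorescence gate, and the shared protocol text covers adult and fetal lung together. That text also names antibodies to EPCAM and NGFR and a wash against blood and immune cells, without saying which gates these libraries passed. The name of the deposited comparison table contains the words adult pig. The comparison asks whether transcripts of the respiratory machinery differ between reporter-bright and reporter-negative lung cells.

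The libraries held 6292253 to 24689986 counts, and GFP-HI was sequenced 3.67 times as deeply as GFP-NEG on average. LGR5 stood at 146 and 152 CPM in GFP-HI and at 1.55 and 0.767 CPM in GFP-NEG. CPM here are counts per 1e+06 of a library's total, summed over the tested genes and multiplied by the library's TMM scaling factor. More genes had at least 1 count in the shallower GFP-NEG libraries (24120 and 25985) than in GFP-HI (18752 and 18392). Summed over 8 fibroblast markers, the level was 81118 and 71308 CPM in GFP-HI and 25213 and 9001 CPM in GFP-NEG, and 5 of the 8 genes were higher in GFP-HI by the test used below. Over 8 immune markers it was 244 and 390 CPM against 1372 and 2039 CPM, with 5 of 8 lower, and over 6 endothelial markers 175 and 174 CPM against 1275 and 543 CPM, with 6 of 6 lower. Over 7 epithelial markers it was 234 and 214 CPM against 551 and 150 CPM (2 lower), over 8 listed markers of smooth and striated muscle 819 and 1741 CPM against 1983 and 271 CPM (3 of 7 tested lower), and for the erythroid genes 0.0906 and 0 CPM against 10.6 and 6.36 CPM. Marker levels thus differed between the groups, and their part, like that of depth, in the results below was not tested. In such bulk samples fewer cells of a type and less RNA per cell cannot be told apart.

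Most OXPHOS transcripts did not pass the test between GFP-HI and GFP-NEG. Of the 75 genes, 73 had enough counts to be tested, with 86 counts or more in every library. At an adjusted p-value under 0.05 (edgeR's quasi-likelihood test, Benjamini-Hochberg over all 19682 genes tested), 3 were higher in GFP-HI, namely NDUFS4, NDUFA11 and COX7A1, and 1 was lower, COX5A. Over all tested genes 8.35% were called higher and 27.6% lower. Among the 10015 tested genes with a mean of at least 10 CPM, the range in which all 73 lie, 15.2% were called higher and 10.7% lower. With the libraries of one pig paired (a replicate block), 2 were higher (NDUFS4 and COX7A1, against 8.67% of all genes) and 0 were lower (24.4% of all genes; at an unadjusted p under 0.05, 5 higher and 2 lower), while COX5A and NDUFA11 had adjusted p-values of 0.056 and 0.058. DESeq2 without the block called the same 4 genes and also ATP5IF1 (6.91% of all genes higher, 26.7% lower). DESeq2 with the block called NDUFS4, COX7A1 and ATP5IF1 higher and COX5A lower (6.13% and 16%). Without GFP-HI replicate 1, edgeR called 5 members higher and 0 lower (5.23% and 13.2% of all genes; 25 and 0 at an unadjusted p under 0.05). It called 0 of 73 without GFP-HI replicate 2 (3.03% higher, 12% lower), and 0 of 73 when either GFP-NEG library was left out (7.62% and 23.3% without replicate 1, 1.23% and 8.98% without replicate 2), with 0, 4 and 0 of 73 at an unadjusted p under 0.05. It also called 0 with at least 10 counts required in every library (4.73% and 11.2%). The standard errors of the log2 fold changes ran from 0.51 to 1.2, so a missed threshold does not show that a transcript was at the same level in both groups.

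**Figure D1:**
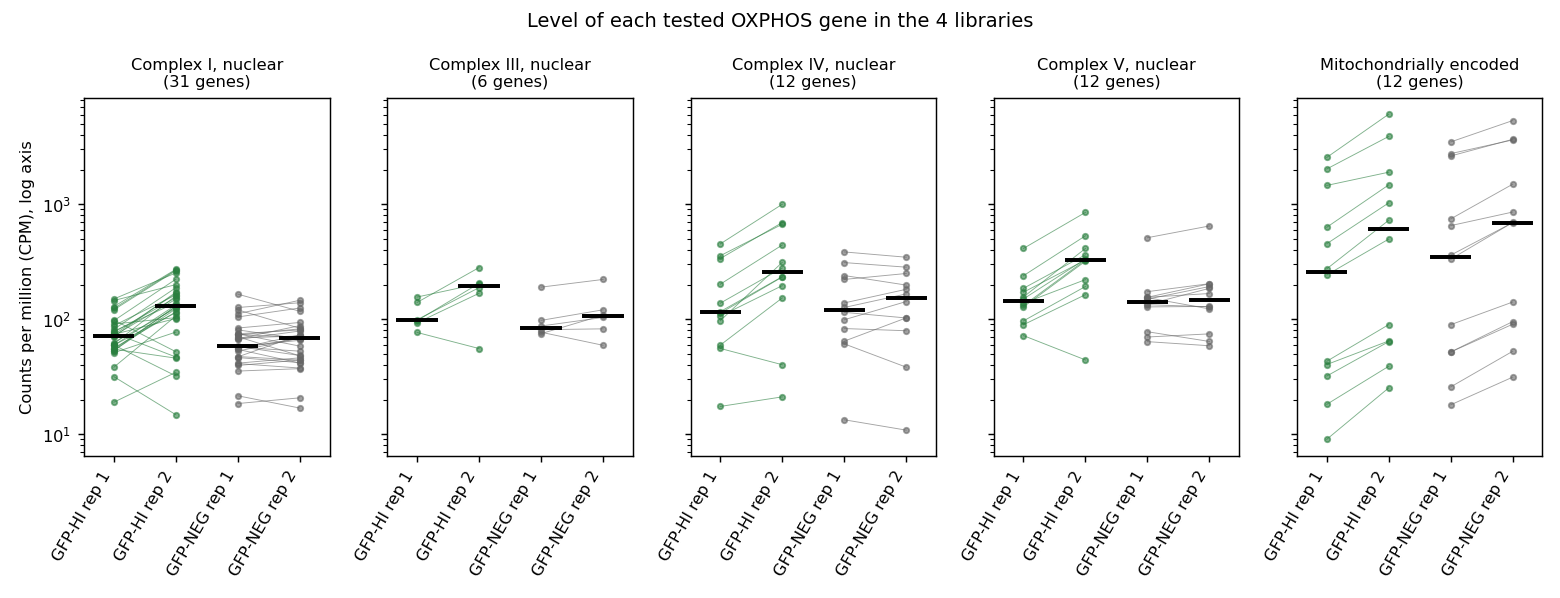
Level of each tested OXPHOS gene in the 4 libraries, in CPM on a log axis; each point is 1 gene, thin lines join the same gene in both replicates of a group, and the thick bar is the median of the panel's genes. By their medians, the nuclear-encoded genes of each complex sit highest in GFP-HI replicate 2, and the mitochondrially encoded genes sit higher in replicate 2 than in replicate 1 of both groups.

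As a group, the 61 tested nuclear-encoded genes lay slightly above 0. Their median log2 fold change was 0.66, with 53 above 0 and 8 below (40 and 21 when scaled by library size alone), against a median of -0.25 over all tested genes and 0.43 over the tested genes with a mean of at least 10 CPM. By complex, the median was 0.66 for complex I, 0.70 for complex III, 0.68 for complex IV and 0.53 for complex V. The GFP-HI and GFP-NEG values did not overlap for 31 nuclear-encoded genes in the higher direction, a state found in 27.7% of all tested genes and in 44.9% of those with a mean of at least 10 CPM. In the lower direction this held for 3 of them (42% and 19.6%). Without GFP-HI replicate 2 the median of the 61 genes was 0.23, and without GFP-HI replicate 1 it was 1.23.

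The 2 replicates differed in size. On a log2(CPM + 1) scale, the median GFP-HI minus GFP-NEG difference of the nuclear-encoded genes was 0.10 in replicate 1 and 0.97 in replicate 2. Of the 61 genes, 44 and 52 were above 0, and 39 were above 0 in both. Over the 10015 tested genes with a mean of at least 10 CPM, the medians were 0.24 and 0.55. Of these, 6371 and 6602 were above 0, and 5335 in both. The nuclear-encoded median was thus below that of such genes in replicate 1 and above it in replicate 2. The TMM factors were 0.912 (GFP-HI) against 1.03 (GFP-NEG) in replicate 1 and 0.817 against 1.31 in replicate 2. They raised every gene's difference, more so in replicate 2, so part of the gap between replicates came from scaling. As plain shares of all counts, the nuclear-encoded members took 0.642% against 0.662% in replicate 1 and 1.12% against 0.893% in replicate 2. In replicate 1 the share was thus lower in GFP-HI, although the scaled median was above 0. GFP-HI replicate 2 exceeded GFP-HI replicate 1 for 53 of the 61 genes, by a median of 1.00, whereas GFP-NEG replicate 2 exceeded GFP-NEG replicate 1 for 36 of them, by a median of 0.11. Over all tested genes with a mean of at least 10 CPM those medians were 0.01 and -0.22. With 1 library per group and replicate, this difference between replicates cannot be tested.

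**Figure D2:**
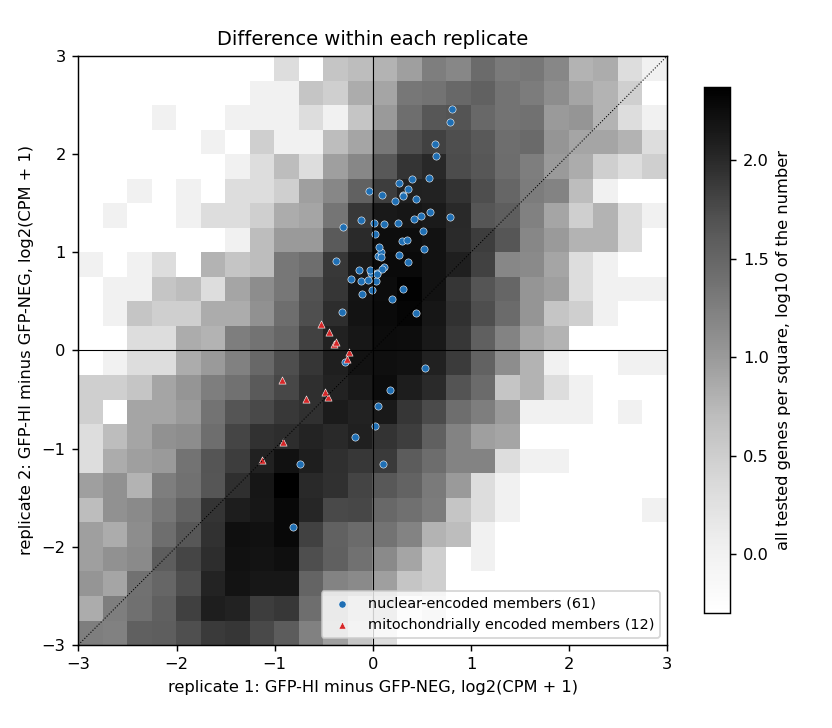
Difference between GFP-HI and GFP-NEG in log2(CPM + 1) within replicate 1 (horizontal) and within replicate 2 (vertical) for 61 nuclear-encoded (circles) and 12 mitochondrially encoded genes (triangles); grey squares count all tested genes on a log10 scale and the dotted line marks equal differences. Most circles stand above the dotted line, with medians of 0.10 in replicate 1 and 0.97 in replicate 2, and the triangles stand at or left of 0 in replicate 1.

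A set of 8 nuclear-encoded genes went the other way and were lower in GFP-HI replicate 2 than in GFP-HI replicate 1. They were picked out after their values were seen. They are NDUFA10, NDUFB10, NDUFS3, NDUFS6 and NDUFS8 of complex I, UQCRFS1 of complex III, COX5A of complex IV and ATP5F1D of complex V, so every complex held at least 1. The drop from replicate 1 to replicate 2 of GFP-HI was from 98.3 to 52.2 CPM for NDUFS8, from 59.7 to 32.1 CPM for NDUFA10, from 31.7 to 14.8 CPM for NDUFS6 and from 76.7 to 55.6 CPM for UQCRFS1. In GFP-NEG the same genes had no common order, with 165 and 117 CPM for NDUFS8 but 55.6 and 73.1 CPM for NDUFA10.

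In complex I, the NADH dehydrogenase, NDUFS4 and NDUFA11 were higher in GFP-HI. NDUFS4, an accessory subunit of the arm that takes electrons from NADH and a gene mutated in Leigh syndrome, was at 124 and 268 CPM in GFP-HI and at 70.3 and 48.0 CPM in GFP-NEG. Both GFP-HI values were above both GFP-NEG values, and NDUFS4 passed the test (log2 fold change 1.73, SE 0.59, adjusted p of 0.012, edgeR). NDUFA11, an accessory subunit of the membrane arm, was at 73.4 and 168 CPM against 46.4 and 41.9 CPM, also without overlap (log2 fold change 1.45, SE 0.55, adjusted p of 0.025, edgeR). Counted only from the library totals, with no further scaling, neither passed (edgeR adjusted p of 0.054 for NDUFS4 and 0.14 for NDUFA11; 4.51% of all genes higher and 29.1% lower).

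Core subunits of complex I carry the flavin and the iron-sulphur clusters, and the 3 described here did not pass. NDUFS1 was at 73.8 and 101 CPM in GFP-HI and 74.7 and 58.3 CPM in GFP-NEG, so the groups overlapped (log2 fold change 0.40 ± 0.53, adjusted p of 0.60, edgeR). NDUFV1, which binds NADH, was at 88.0 and 162 CPM against 72.8 and 82.4 CPM, with no overlap, but did not pass (log2 fold change 0.69, SE 0.55, adjusted p of 0.35, edgeR). NDUFS8 had the lowest fold change among the nuclear-encoded genes of the complex, with 98.3 and 52.2 CPM against 165 and 117 CPM and did not pass either (log2 fold change -0.91, SE 0.56, adjusted p of 0.21, edgeR). Over the 25 accessory genes of complex I the median log2 fold change was 0.73, with 23 of 25 above 0. Below the threshold, NDUFB11, NDUFS5, NDUFC2, NDUFB5, NDUFA1 and NDUFB6 had log2 fold changes between 1.01 and 1.22.

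Complex III hands electrons from ubiquinol to cytochrome c, and 0 of its 6 nuclear-encoded genes passed (also 0 at an unadjusted p under 0.05 in edgeR and in DESeq2). UQCRFS1, the Rieske iron-sulphur protein, was at 76.7 and 55.6 CPM in GFP-HI and 87.3 and 103 CPM in GFP-NEG. Its values did not overlap and its log2 fold change was -0.53 ± 0.53 (adjusted p of 0.48, edgeR). The core protein UQCRC1 overlapped, at 156 and 203 CPM against 190 and 222 CPM (log2 fold change -0.20). UQCR10, a small membrane subunit, was at 98.9 and 188 CPM against 77.0 and 59.3 CPM, the highest fold change of the complex at 1.07 ± 0.56 (adjusted p of 0.13). The 3 small subunits among the 75, UQCR10, UQCR11 and UQCRQ, had values without overlap, higher in GFP-HI. This state was found in 27.7% of all tested genes and in 44.9% of those with a mean of at least 10 CPM. The log2 fold changes of these 3 ran from 0.88 to 1.07. The core and Rieske genes ranged from -0.53 to 0.51. This division by role, like that of complexes I and V, was made after the values were seen and carries no test.

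Complex IV, cytochrome c oxidase, held calls in both directions. COX7A1 is the isoform of subunit VIIa known from heart and skeletal muscle, and COX7A2 is the widely expressed isoform. COX7A1 was at 106 and 196 CPM in GFP-HI and at 61.0 and 38.3 CPM in GFP-NEG, and passed the test (log2 fold change 1.61, SE 0.56, adjusted p of 0.015, edgeR). COX7A2 was at 116 and 234 CPM against 115 and 103 CPM, and did not pass (log2 fold change 0.69, SE 0.58, adjusted p of 0.38, edgeR). Within a library, where scaling cancels, there were 0.912 and 0.836 counts of COX7A1 per count of COX7A2 in GFP-HI against 0.532 and 0.373 in GFP-NEG. These ratios did not overlap, and the exact two-sided permutation test gave p = 0.333, the smallest that 2 against 2 libraries allow.

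Listed genes of striated muscle were low in count. ACTN2 had 11 and 0 counts in GFP-HI (0.498 and 0 CPM) against 25 and 59 in GFP-NEG (3.88 and 6.47 CPM). MYH7 had 18 and 22 (0.816 and 1.09 CPM) against 24 and 59 (3.73 and 6.47 CPM). CKM had 64 and 55 (2.9 and 2.7 CPM) against 20 and 65 (3.1 and 7.1 CPM). TNNT2 had at most 1 count in any library. The part of muscle cells in the COX7A1 difference was not tested. COX6A2, the muscle isoform of subunit VIa, was low in all libraries, at 17.4 and 21.1 CPM in GFP-HI and 13.4 and 10.9 CPM in GFP-NEG (log2 fold change 0.67 ± 0.59, adjusted p of 0.40, edgeR). Its partner COX6A1 was at 451 and 999 CPM against 384 and 346 CPM (log2 fold change 0.99 ± 0.75, adjusted p of 0.32). The counts of COX6A2 per count of COX6A1 overlapped, at 0.0386 and 0.0211 in GFP-HI against 0.0347 and 0.0314 in GFP-NEG.

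COX5A, a subunit on the matrix side of the oxidase, was the 1 member called lower in GFP-HI. It was at 55.7 and 40.2 CPM in GFP-HI and at 98.9 and 142 CPM in GFP-NEG, with no overlap (log2 fold change -1.33, SE 0.55, adjusted p of 0.042, edgeR). Its partner in the same complex, COX5B, overlapped at 201 and 442 CPM against 222 and 250 CPM. Counts of COX5A per count of COX5B, a pair chosen after the values were seen, were 0.276 and 0.0910 in GFP-HI against 0.446 and 0.570 in GFP-NEG. The remaining tested nuclear-encoded oxidase genes had log2 fold changes above 0 and did not pass. COX4I1, a large nuclear-encoded subunit, was at 337 and 693 CPM against 311 and 283 CPM (0.79 ± 0.71, adjusted p of 0.41). NDUFA4, first assigned to complex I and now placed in complex IV, was at 113 and 233 CPM against 82.9 and 79.4 CPM (1.09 ± 0.58, adjusted p of 0.13). COX8A overlapped, at 97.0 and 312 CPM against 126 and 166 CPM. COX6B2, a testis isoform, had 2 counts in 1 library and 0 in the other 3 and was not tested.

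**Figure D3:**
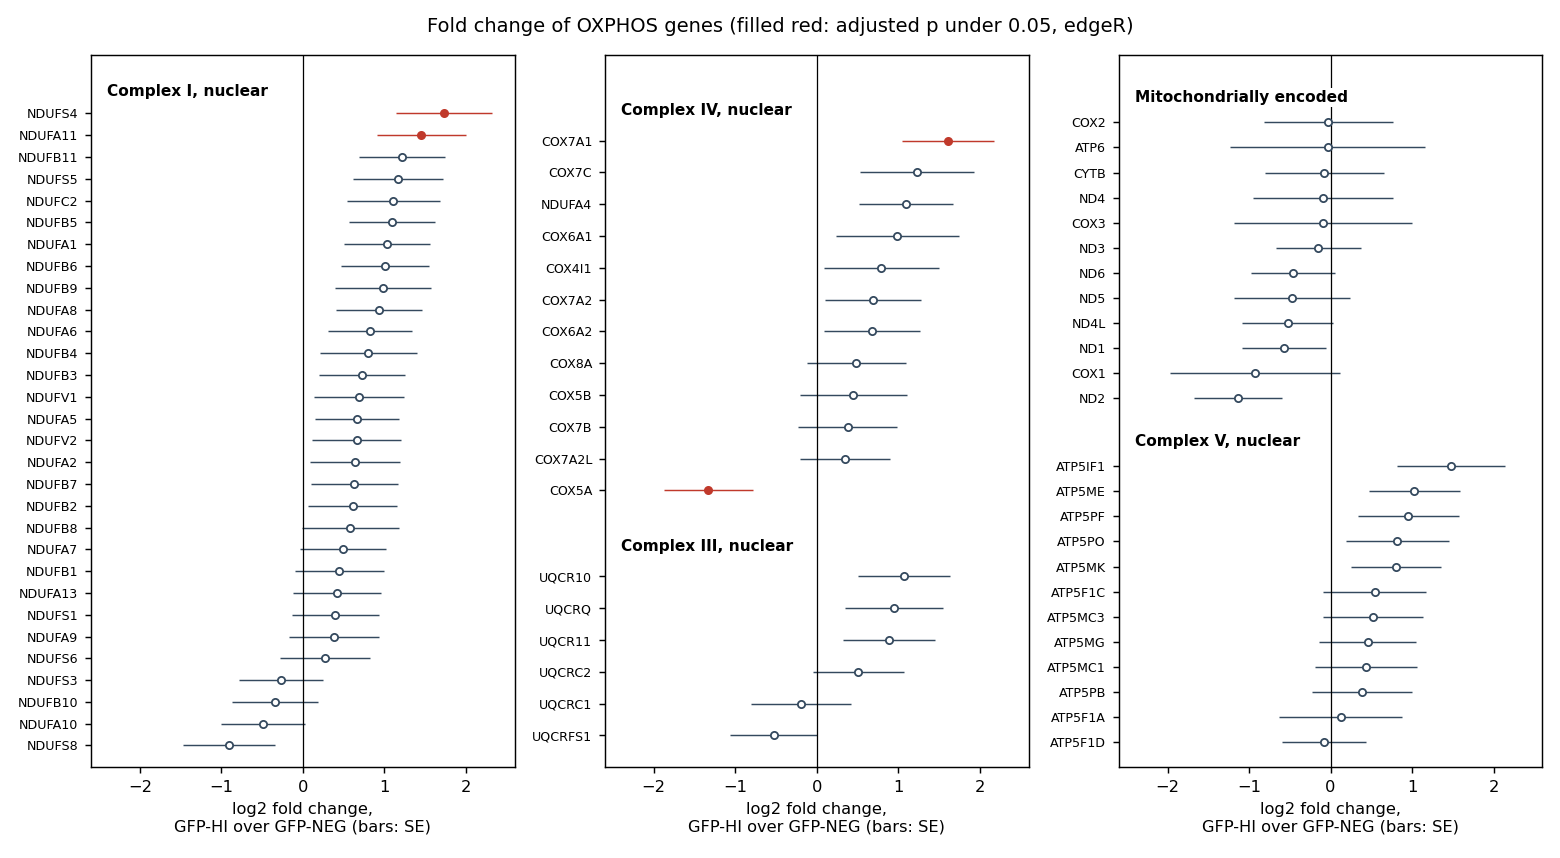
Log2 fold change of GFP-HI over GFP-NEG for the OXPHOS genes shown, ordered by size within its complex; bars show the standard error and filled red points passed an adjusted p of 0.05 in edgeR. NDUFS4 (1.73), NDUFA11 (1.45) and COX7A1 (1.61) lie to the right, COX5A (-1.33) to the left, and 12 of 12 mitochondrially encoded genes lie at or left of 0.

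Complex V, the ATP synthase, had 0 of 12 genes past the threshold in edgeR (1 higher at an unadjusted p under 0.05, and 1 higher in DESeq2, in both cases ATP5IF1). ATP5IF1 encodes the inhibitor that stops the synthase from running backwards and consuming ATP. It was at 239 and 531 CPM in GFP-HI and 154 and 123 CPM in GFP-NEG, with no overlap (log2 fold change 1.48, SE 0.66; adjusted p of 0.067 in edgeR and 0.030 in DESeq2). The catalytic-head subunit ATP5F1A overlapped, at 412 and 849 CPM against 511 and 647 CPM, and did not pass (log2 fold change 0.12, SE 0.76, adjusted p of 0.92, edgeR). Counts of ATP5IF1 per count of ATP5F1A, a pair chosen after the values were seen, were 0.579 and 0.626 in GFP-HI against 0.301 and 0.190 in GFP-NEG, without overlap (exact permutation p = 0.333, the smallest possible). ATP5F1D, of the central stalk, was at 72.0 and 44.2 CPM against 63.8 and 58.8 CPM. The 3 listed genes of the F1 part (ATP5F1A, ATP5F1C and ATP5F1D) ranged from -0.08 to 0.54. The 8 listed genes of the membrane part and outer stalk ranged from 0.39 to 1.03. ATP5F1B, a preset core subunit, was not among the 75.

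The mitochondrially encoded transcripts did not pass the test: 0 of 12 tested genes were called in edgeR or in DESeq2 (at an unadjusted p under 0.05, 1 lower in edgeR and 2 lower in DESeq2). Of these genes, ND1 to ND6 and ND4L belong to complex I, CYTB to complex III, COX1 to COX3 to complex IV and ATP6 to complex V. ATP8, whose reading frame overlaps that of ATP6, had 0 counts in all 4 libraries, and how reads shared between overlapping genes were counted is not given in the sources used here. The labels name a Nextera XT library kit, which does not mark the strand, so ND6, the one protein gene on the other strand of the mitochondrial genome, cannot be told apart from antisense RNA. The 12 log2 fold changes ran from -1.14 to -0.03, with a median of -0.30, beside -0.25 over all tested genes and 0.43 over the tested genes with a mean of at least 10 CPM, to which all 12 belong. All 12 were below 0 in replicate 1, and 8 were below 0 in both replicates. Of the 10015 tested genes in that CPM range, 2375 were below 0 in both. The median was 0.32 without GFP-HI replicate 1 and 0.12 without GFP-NEG replicate 2, so its direction rested on those libraries.

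Replicate 2 was higher than replicate 1 for all 12 of these genes in both groups. The median difference was 1.05 in GFP-HI and 0.78 in GFP-NEG on the log2(CPM + 1) scale. As a share of all counts, the 13 genes took 0.708% and 1.29% in GFP-HI against 1.14% and 2.17% in GFP-NEG, and the groups overlap (exact two-sided permutation p = 0.667, with 0.333 the smallest possible). The nuclear-encoded members took 0.642% and 1.12% in GFP-HI against 0.662% and 0.893% in GFP-NEG (exact permutation p = 1). Set against each other, there were 1.10 and 1.16 mitochondrially encoded counts per nuclear-encoded OXPHOS count in GFP-HI against 1.73 and 2.43 in GFP-NEG. This ratio, formed after the values were seen, does not depend on the scaling of the libraries. It was close between the GFP-HI replicates and did not overlap with GFP-NEG (exact permutation p = 0.333, the smallest possible).

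ND2 and COX1 were the 2 of 12 tested mitochondrial genes whose groups did not overlap, both lower in GFP-HI. This state was found in 42% of all tested genes and in 19.6% of those with a mean of at least 10 CPM. ND2 was at 40.3 and 64.7 CPM in GFP-HI and 89.6 and 141 CPM in GFP-NEG, and did not pass (log2 fold change -1.14, SE 0.54, adjusted p of 0.090, edgeR). It did pass in edgeR when counts were scaled by library size alone (adjusted p of 0.010) or by the upper quartile (0.017). COX1, the oxidase subunit that holds the site of oxygen reduction, was at 1455 and 1897 CPM against 2751 and 3617 CPM. It did not pass (-0.93 ± 1.05, adjusted p of 0.53 in edgeR and 0.12 in DESeq2). Its GFP-HI minus GFP-NEG difference was -0.92 in replicate 1 and -0.93 in replicate 2. The edgeR standard error was moderated fully to the trend, so it does not measure the spread of COX1 itself. COX1 made up 18.7% and 12.0% of the mitochondrially encoded counts in GFP-HI against 24.6% and 21.6% in GFP-NEG. ND2 made up 0.519% and 0.408% against 0.802% and 0.841%.

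The other mitochondrial genes overlapped between the groups. ATP6 was at 2548 and 6059 CPM in GFP-HI and 3477 and 5333 CPM in GFP-NEG, and COX3 at 2022 and 3881 CPM against 2625 and 3664 CPM. COX2 was at 452 and 1026 CPM against 651 and 854 CPM, and CYTB at 274 and 724 CPM against 360 and 690 CPM. For each of these 4 the lowest and the highest value were both in GFP-HI. ND4 was at 629 and 1471 CPM against 744 and 1492 CPM, and ND5 at 242 and 497 CPM against 333 and 693 CPM. The remaining genes were lower in level: ND1 at 32.0 and 63.8 CPM against 51.9 and 90.4 CPM, ND3 at 43.0 and 89.7 CPM against 51.9 and 95.3 CPM, ND4L at 9.02 and 25.3 CPM against 18.0 and 31.4 CPM, and ND6 at 18.2 and 39.0 CPM against 25.8 and 52.6 CPM. In these 6 genes the lowest value was that of GFP-HI replicate 1. Levels are CPM and not per length, so they are not compared between genes.

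**Figure D4:**
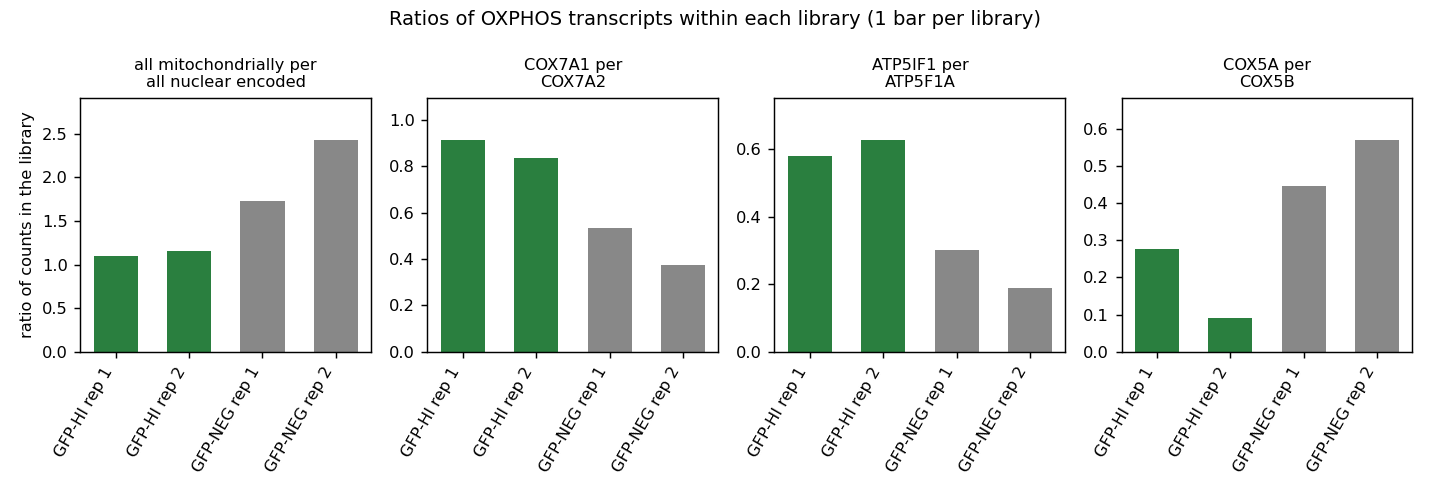
Ratio of counts within each library, 1 bar per library on axes from 0, for all mitochondrially per all nuclear-encoded members, COX7A1 per COX7A2, ATP5IF1 per ATP5F1A and COX5A per COX5B. In each panel the 2 GFP-HI bars (green) lie wholly on one side of the 2 GFP-NEG bars (grey), below them for the first and last panel and above them for the others. COX7A1 per COX7A2 was a preset pair, chosen with earlier results of these data known. The other ratios shown were chosen after the values were seen. In none of the panels does the separation carry weight as a test. The preset pair COX6A2 per COX6A1, whose groups overlapped, is not drawn.

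The genes that build and feed the chain were examined in the same fit. Complex II, which oxidises succinate and is encoded in the nucleus alone, had 0 of 4 genes past the threshold (0 at an unadjusted p under 0.05 in edgeR and DESeq2), with log2 fold changes of 0.12 for SDHA, 0.83 for SDHB, 0.93 for SDHC and 1.10 for SDHD. CYC1 and CYCS, the cytochromes c1 and c, were at -0.15 and -0.68 and did not pass (adjusted p of 0.86 and 0.37). CYCS was at 62.7 and 103 CPM in GFP-HI and 133 and 132 CPM in GFP-NEG, without overlap. Of 38 assembly factors, 2 rose and 0 fell (at an unadjusted p under 0.05, 4 higher and 1 lower; 1 higher in DESeq2), with a median of 0.54, where 8.35% of all tested genes rose. In edgeR, 4 of the 38 were higher without GFP-HI replicate 1 and 0 were called when any one of the other 3 libraries was left out. They were COX11, which delivers copper to the oxidase, at 34.8 and 73.1 CPM against 14.8 and 18.6 CPM (1.69 ± 0.53, adjusted p of 0.0058), and COX20, a chaperone of COX2 (1.40, adjusted p of 0.038).

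The mitochondrial ribosome translates the 13 mitochondrial messages. Of 68 genes of its proteins, 10 rose and 1 fell, with a median log2 fold change of 0.69 (0.30 without GFP-HI replicate 2). The counts were 6 and 0 in DESeq2, 2 and 0 in DESeq2 with the replicate block, and 0 and 1 in edgeR with library size alone. They were 0 and 0 in edgeR with at least 10 counts required in every library. Of all tested genes, 8.35% were called higher and 27.6% lower. Of those with a mean of at least 10 CPM, 15.2% were higher and 10.7% lower, though the list reached down to 1.8 CPM. MRPL16 (1.67), MRPL33 (1.62) and MRPL27 (1.58) had the largest increases and MRPS12 (-1.28) fell. As among the nuclear-encoded OXPHOS genes, the median difference was small in replicate 1 (0.18) and larger in replicate 2 (1.04), with the same TMM scaling. Over the tested genes with a mean of at least 10 CPM it was 0.24 and 0.55. Of 13 genes for the copying and transcription of mitochondrial DNA, 0 passed (2 higher at an unadjusted p under 0.05, 0 in DESeq2), TFAM among them at 0.64. Of 30 tested genes of protein import and cristae, 2 rose, TIMM22 (1.80) and TIMM21 (1.38), and 0 fell (0 lower at an unadjusted p under 0.05; 1 higher in DESeq2), again beside 8.35% of all tested genes. In edgeR, 3 of the 30 were higher without GFP-HI replicate 1, and 1 without GFP-NEG replicate 1. None passed when replicate 2 of either group was left out (0 called) or with at least 10 counts required in every library.

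Of the 75 genes, 73 are in the authors' deposited table. In that table, at an adjusted p-value under 0.05, NDUFS4, NDUFA11, COX7A1 and ATP5IF1 are higher and COX5A is lower in GFP-positive cells (8.2% of all its genes are higher and 11.2% lower). The authors' deposited table gives log2 fold changes of 1.72, 1.44, 1.60, 1.47 and -1.34 for these 5 genes. It was made from the same 4 libraries and is no independent evidence.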

How the data were processed

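RNA from 4 sorted libraries (2 GFP-HI, 2 GFP-NEG) was sequenced by the authors, who deposited whole-number counts per gene. The submitters' processing notes name featureCounts, Subread 1.5.2 and DESeq2 1.37.6 with no role or order; the aligner and strand setting are not given in the sources used here. The name of the deposited comparison table carries what may be a genome and annotation version, which no label explains, so no coordinates are given. The authors also deposited a comparison table with log2 fold changes, p-values and adjusted p-values (per the file headers), whose counts equal those of the single tables; 4 further columns of values per sample in it were not used. Ensembl identifiers were renamed where a provided gene name table gave an unused symbol (834 identifiers, among them NDUFA7, NDUFB5 and UQCR11). Genes with near-identical copies or overlapping neighbours are uncertain, since it is not stated how shared reads were counted.

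Counts were tested with edgeR 4.0.16 (R 4.3.3; glmQLFit and glmQLFTest, TMM scaling, filterByExpr, group as the only term), with Benjamini-Hochberg adjustment over 19682 genes. The common dispersion was 0.239 and the genewise spread was moderated fully to the trend. CPM are counts over the TMM-scaled total of the tested genes; 1 count is worth 0.0453 to 0.155 CPM. Differences within a replicate are in log2(CPM + 1). Standard errors were taken from the fold change and its F statistic. The fit was tested on simulated data. Alternatives were other scalings and filters, thinned GFP-HI counts, DESeq2 1.42.0, each library left out and the replicate number as a block. Headings of the unused columns name pig 1 and pig 2 in both groups, so the numbers were taken to pair the libraries; the replicate 1 minus 2 differences of the 2 groups correlated across genes with r = 0.16. Where replicates come from one animal each, n is 2 animals.

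The members, gene lists and tests were chosen with earlier results of these data known, and no list was tested as a whole. Named are the 13 mitochondrial genes, in each complex the genes past the threshold and those with the highest and lowest fold change, preset core subunits and paralogue pairs; other genes are named from lists or, where stated, after their values were seen. One member is counted in the totals but its own result is not reported here.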

Additional observations from a re-analysis of the deposited data

How the results depend on the processing

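The counts of members called, 3 higher and 1 lower, changed with the processing. They were 0 and 0 with at least 10 counts required in every library (at an unadjusted p under 0.05, 4 and 2, edgeR), 0 and 2 with library size alone (2 and 4 unadjusted), 2 and 2 with upper-quartile scaling and 3 and 0 with no filter. The replicate block gave 2 and 0. It ended the calls of NDUFA11 and COX5A and of no other member. Leaving out 1 library gave 0 to 5 higher and 0 lower, in fits where the lone library of a group is assumed to vary like the other group. Over all genes, 1643 were higher and 5433 lower. These counts were 631 and 1490 with at least 10 counts in every library, 888 higher with library size alone, 1083 higher with the upper quartile, 3610 lower with GFP-HI thinned and 3153 lower with DESeq2 and the replicate block (an alternative chosen after seeing the data, as was the set of genes with a mean of at least 10 CPM). Without 1 library they ran from 216 to 1635 and from 1575 to 4999.

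The median of the nuclear-encoded members was above 0 under each alternative run, at 0.19 with library size alone, where all tested genes moved from -0.25 to -0.68. It ran from 0.23 to 1.23 without 1 library, as did complex I; complexes III and IV ran from 0.23 to 1.25 and complex V from 0.12 to 1.14. Complex III was at 0.22 with library size alone. The mitochondrially encoded median was -0.52 with at least 10 counts in every library, -0.82 with library size alone and -0.68 with the upper quartile, and ran from -0.90 to 0.32 without 1 library.

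Named genes near 0 changed sign, with no call in either direction: ATP6 and COX2 were at 0.03 with no filter, ATP5F1A at -0.03 with GFP-HI thinned, -0.08 with at least 10 counts, -0.23 with the upper quartile and -0.36 with library size alone, where NDUFS1 was at -0.03 and COX8A at -0.01. Without 1 library, ATP6 ran from -0.68 to 0.62, COX2 from -0.63 to 0.60, COX3 from -0.54 to 0.46, CYTB from -0.83 to 0.63, ND1 from -1.04 to 0.00, ND3 from -0.66 to 0.45, ND4 from -0.71 to 0.56, ND4L from -1.34 to 0.19, ND5 from -0.97 to 0.12, ND6 from -1.0 to 0.16, ATP5F1D from -0.33 to 0.32, UQCRC1 from -0.31 to 0.13, ATP5F1A from -0.39 to 0.70 and COX8A from -0.49 to 1.25. NDUFS4 and COX7A1 kept their call in 9 of 14 alternatives, COX5A in 7 and NDUFA11 in 5. Without 1 library, the log2 fold change ran from 1.14 to 2.31 for NDUFS4, from 1.17 to 2.10 for COX7A1, from 0.82 to 2.06 for NDUFA11 and from 0.87 to 2.07 for ATP5IF1, in each case lowest without GFP-HI replicate 2 and highest without GFP-HI replicate 1. COX5A ran from -1.52 to -1.01 and lost its call each time. The cause of these changes was not tested, save that leaving out a library leaves fewer samples. Depth limits GFP-NEG most, where the lowest count of a tested member was 86.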

Other observations

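Genes that supply the chain with electrons, or use its proton gradient, did not move together. Of 13 tricarboxylic acid cycle genes, 0 passed (0 at an unadjusted p under 0.05 in edgeR, 0 in DESeq2), with a median log2 fold change of 0.08 and a range from -0.65 (MDH2) to 0.94 (DLD). The sign of that median changed with the processing: it was -0.36 with library size alone, -0.25 with the upper quartile, -0.13 with at least 10 counts required in every library and -0.02 with GFP-HI thinned, and it was 0.27 without GFP-HI replicate 1. The transcript of citrate synthase, CS, was at -0.06, and mitochondrial content itself was not measured. Of 17 glycolysis genes, 2 were higher, ENO2 (2.31, adjusted p of 2.2e-04, edgeR) and PFKM (1.62, adjusted p of 0.0085), and 1 was lower, HK2 (-2.50, adjusted p of 5.7e-04), with a median of -0.34. Over all tested genes 8.35% were higher and 27.6% lower. DESeq2 called 2 glycolysis genes higher and 3 lower. The glycolysis median was 0.00 without GFP-HI replicate 1, -0.47 without GFP-HI replicate 2 and -0.81 with library size alone. LDHA, which makes lactate, was at 186 and 386 CPM in GFP-HI and 739 and 945 CPM in GFP-NEG, without overlap (-1.56, adjusted p of 0.10).

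UCP2, a carrier of the inner membrane, was at 38.4 and 39.5 CPM in GFP-HI and 368 and 614 CPM in GFP-NEG (log2 fold change -3.66, SE 0.72, adjusted p of 1.1e-05, edgeR). SLC25A5, one of the carriers that exchange ADP for ATP, was lower as well, at 33.0 and 70.4 CPM against 126 and 216 CPM (-1.73 ± 0.57, adjusted p of 0.0098), whereas SLC25A4, the isoform known from heart and muscle, overlapped between the groups (0.32, adjusted p of 0.67). PTPRC, which encodes the leukocyte protein CD45, moved the same way as UCP2, at 45.9 and 121 CPM against 687 and 1214 CPM, and its part in these differences was not tested. Among 9 regulators of mitochondrial biogenesis, 1 was lower, where 27.6% of all tested genes were lower. It was PPARGC1B, with 0 and 5 counts in GFP-HI against 9 and 31 in GFP-NEG (adjusted p of 0.0099, edgeR). The list also held 1 lower gene in edgeR with the replicate block and in DESeq2 without it. It held 0 lower in DESeq2 with the block, and 0 of 7 tested with GFP-HI thinned. PPARGC1A (0.51) and NRF1 (-0.29) did not pass.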
